A study of Mus musculus with 4 samples.

Results

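The genes described here are 10 members of the major histocompatibility complex (MHC) antigen presentation machinery, chosen by symbol: H2-K1, H2-D1 and B2m of class I, and H2-Aa, H2-Ab1, H2-Eb1, Cd74, H2-DMa, H2-DMb1 and Ciita of class II. Their values are those of every probe set (a group of short probes on the array that reads 1 transcript) annotated with exactly 1 of these symbols, which were 29 of the 45037 probe sets that are no control. These 29 covered 9 of the 10 genes, out of 18193 genes that the annotation names. No probe set carried the symbol H2-DMb1 alone, so that gene has no value here. The RNA came from mammary tumors of female C57BL/6 mice that carry the polyoma virus middle T (PyV-mT) transgene, a viral oncogene, in both groups. One group was St6gal1-/-, lacking the sialyltransferase that caps N-glycans with alpha2-6-linked sialic acid (called null here), and the other was its wild-type littermates. Animals were 110 days old and tumors were taken 14 days after onset. Each of the 4 arrays held a pool of 3 tumors from 3 animals, and each of the 2 sets paired 1 null with 1 wild-type pool. Bulk tumor RNA holds every cell type of the tumor, so fewer cells of a type and less RNA per cell cannot be told apart. The sources used here name neither the promoter that drives the transgene nor the part of St6gal1 that the null allele lacks.

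Class I molecules, a polymorphic heavy chain (H2-K1 or H2-D1) paired with beta2-microglobulin (B2m), carry peptides from inside the cell to the surface of nearly all nucleated cells, where CD8 T cells read them. Class II molecules pair an alpha and a beta chain (H2-Aa with H2-Ab1, or H2-Ea with H2-Eb1) and are made mainly by macrophages, dendritic cells and B cells. Cd74 is the invariant chain that holds the class II groove until the endosome, and H2-DM exchanges its last fragment for peptide. Ciita is the coactivator that class II transcription depends on. Nlrc5 is its counterpart for class I, and both act on promoters through a shared set of DNA-bound factors, including RFX at the X box and NF-Y at the Y box.

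The promoters of 5 members are shown, those with a match to an element named below. They are RefSeq windows of 300 bases (250 before to 50 after an annotated start, build GRCm38.p6), read 5′ to 3′ on the strand of the gene. They lie at chr17:34000284-34000583 on the minus strand for H2-K1 (the downstream of its 2 annotated starts), chr17:35262844-35263143 on the plus strand for H2-D1, chr2:122147437-122147736 on the plus strand for B2m, chr17:34287774-34288073 on the minus strand for H2-Aa, and chr17:34305617-34305916 on the plus strand for H2-Eb1. Capitals mark matches, on either strand, to the Y box CTGATTGG, the NF-kB element GGGATTCCC, the interferon element GAAANNGAA or the letters TGANNTCA. TGANNTCA stands for a part of the X box, of the cAMP type, and no other part of the X box was searched. Its matches and misses are therefore no evidence on sites of RFX.
H2-K1: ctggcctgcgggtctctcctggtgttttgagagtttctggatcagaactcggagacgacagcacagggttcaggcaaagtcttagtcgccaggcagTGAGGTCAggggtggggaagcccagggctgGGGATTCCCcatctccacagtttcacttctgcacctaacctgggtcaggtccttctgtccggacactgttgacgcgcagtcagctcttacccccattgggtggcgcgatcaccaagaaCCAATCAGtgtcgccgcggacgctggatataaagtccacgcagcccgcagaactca
H2-D1: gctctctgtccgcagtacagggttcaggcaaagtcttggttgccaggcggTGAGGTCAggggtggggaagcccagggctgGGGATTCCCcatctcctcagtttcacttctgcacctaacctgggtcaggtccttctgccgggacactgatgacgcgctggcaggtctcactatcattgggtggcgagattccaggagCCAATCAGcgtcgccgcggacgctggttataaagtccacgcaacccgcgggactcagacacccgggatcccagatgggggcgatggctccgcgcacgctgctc
B2m: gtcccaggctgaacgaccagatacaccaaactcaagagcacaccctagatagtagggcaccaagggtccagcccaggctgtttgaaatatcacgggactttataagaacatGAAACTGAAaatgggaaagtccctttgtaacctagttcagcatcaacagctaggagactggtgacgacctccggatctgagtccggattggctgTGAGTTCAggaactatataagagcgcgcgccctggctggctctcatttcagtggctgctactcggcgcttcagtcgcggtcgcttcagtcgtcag
H2-Aa: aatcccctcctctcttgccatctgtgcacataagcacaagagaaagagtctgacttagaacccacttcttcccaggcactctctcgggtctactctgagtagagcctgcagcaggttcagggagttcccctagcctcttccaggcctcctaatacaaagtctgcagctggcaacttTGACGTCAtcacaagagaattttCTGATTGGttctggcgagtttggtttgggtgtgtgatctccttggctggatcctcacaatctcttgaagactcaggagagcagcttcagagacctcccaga
H2-Eb1: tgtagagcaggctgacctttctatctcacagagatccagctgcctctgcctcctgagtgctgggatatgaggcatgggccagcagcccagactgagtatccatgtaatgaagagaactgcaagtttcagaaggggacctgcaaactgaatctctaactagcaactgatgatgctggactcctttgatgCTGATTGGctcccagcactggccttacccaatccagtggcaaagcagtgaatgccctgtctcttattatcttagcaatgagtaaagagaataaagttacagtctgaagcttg

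The Y box letters were found in the windows of 4 of the 7 members that had one, H2-K1, H2-D1, H2-Aa and H2-Eb1, against 4.10% of all 32851 windows in the table. The NF-kB letters were found in H2-K1 and H2-D1, against 0.353% of all windows, and the interferon letters in B2m, against 8.56%. The letters TGANNTCA, searched as a part of the X box, were found in H2-K1, H2-D1, B2m and H2-Aa, against 14.1%. In H2-Aa they ended at base -67 and the Y box letters began at base -51. In H2-K1 and H2-D1 they began at bases -154 and -200, upstream of the NF-kB letters at -124 and -170, and in B2m at base -45. In H2-Aa alone they lay shortly upstream of a Y box match, so elsewhere they need not be part of an X box. In H2-Eb1 the Y box letters began at base -62, and TGANNTCA was not matched. The windows of H2-DMa and H2-DMb1, the other members searched, held no match to any of these letters. No 2 matches overlapped in the windows shown. A match describes these letters only and is not a bound site. Only exact letters were searched, so a window without a match, such as that of B2m for the Y box, may still hold a variant of the element. The windows are those of the reference C57BL/6 genome.

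**Figure D1:**
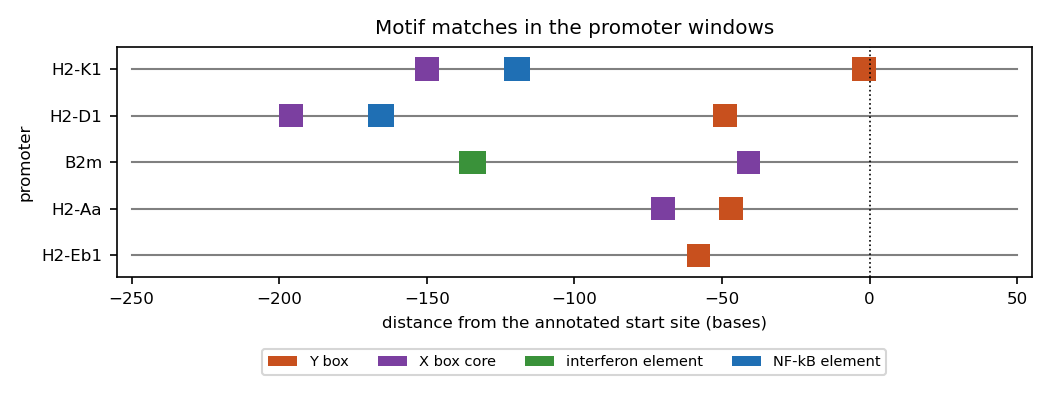
Matches to the 4 motifs (coloured boxes) in the 5 promoter windows, by distance in bases from the annotated start site (dotted line). The exact Y box letters CTGATTGG were matched in both class I heavy chain promoters and in both class II promoters shown, but not in B2m. Variants of these letters were not searched.

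Intensities are MAS5 signals on a linear scale in arbitrary units, given in the order null 1, wild type 1, null 2 and wild type 2, where the number is the set. Ratios are null over wild type on the scale log2(intensity + 44), with the standard error (SE) of limma, a linear model fitted to all probe sets with set and genotype as terms (n = 2 pools per genotype). A probe set is called where its limma p, adjusted by Benjamini-Hochberg over the 22519 probe sets tested, is under 0.05. The labels give separate pools of animals. The spread of a probe set over the 4 pools leaves 1 residual degree of freedom, and limma adds 13.5 from probe sets of like intensity. The p-values thus rest mostly on the spread of other probe sets. An intensity of 565, the highest among 13 Y-linked probe sets, whose genes female mice lack, marks the unspecific level. Median intensities ran from 588 to 619. The 3'/5' signal ratio of Gapdh was 0.873 and 0.869 in null and wild type of set 1, but 2.13 and 1.57 in set 2. The brighter probe set of St6gal1 read 2337, 2330, 3642 and 2796 and so showed no loss in the null arrays (log2 0.19 ± 0.16), and it may lie outside the deleted part. The genotype of each array therefore rests on its label. Of 7 epithelial markers, 7 read above the unspecific level on every array, among them Krt8 (101213 to 150715) and Epcam (21835 to 52347).

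Both classes were strongly expressed in all 4 pools, and the differences between genotypes were small. Of the 22 member probe sets that passed the filter on dim signals, 2 of class I were called lower in the null pools (H2-K1 and B2m) and 1 of class II was called higher (H2-Ab1). That is 13.6% of the 22, against 7.36% of all probe sets tested (4.09% higher and 3.27% lower), so the count of calls itself is not far above the background. At an unadjusted p under 0.05 the count was 5 of 22, or 22.7%, against 20.5% of all. Of 11 class I probe sets 10 had a log2 ratio below 0 in the fit, where 54.6% of all probe sets tested lay below 0. Of 11 class II probe sets 10 had one above 0, where 45.4% of all did, and 1 of these 10 is that of Ciita, which passed the filter through its null arrays only. Most of these ratios lay within 2 SE of 0, and 7 of the 22 changed sign between the 2 sets. Among these, H2-Ab1 on 1451721_a_at moved from 0.01 to -0.02 under quantile normalization, and the other 21 kept their sign under quantile and cyclic loess normalization. Both classes share their arrays, so the probe sets are not independent, and no test was made of the counts. The groups of arrays did not overlap for 8 of the 22, or 36.4%, against 32.0% of all probe sets.

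**Figure D2:**
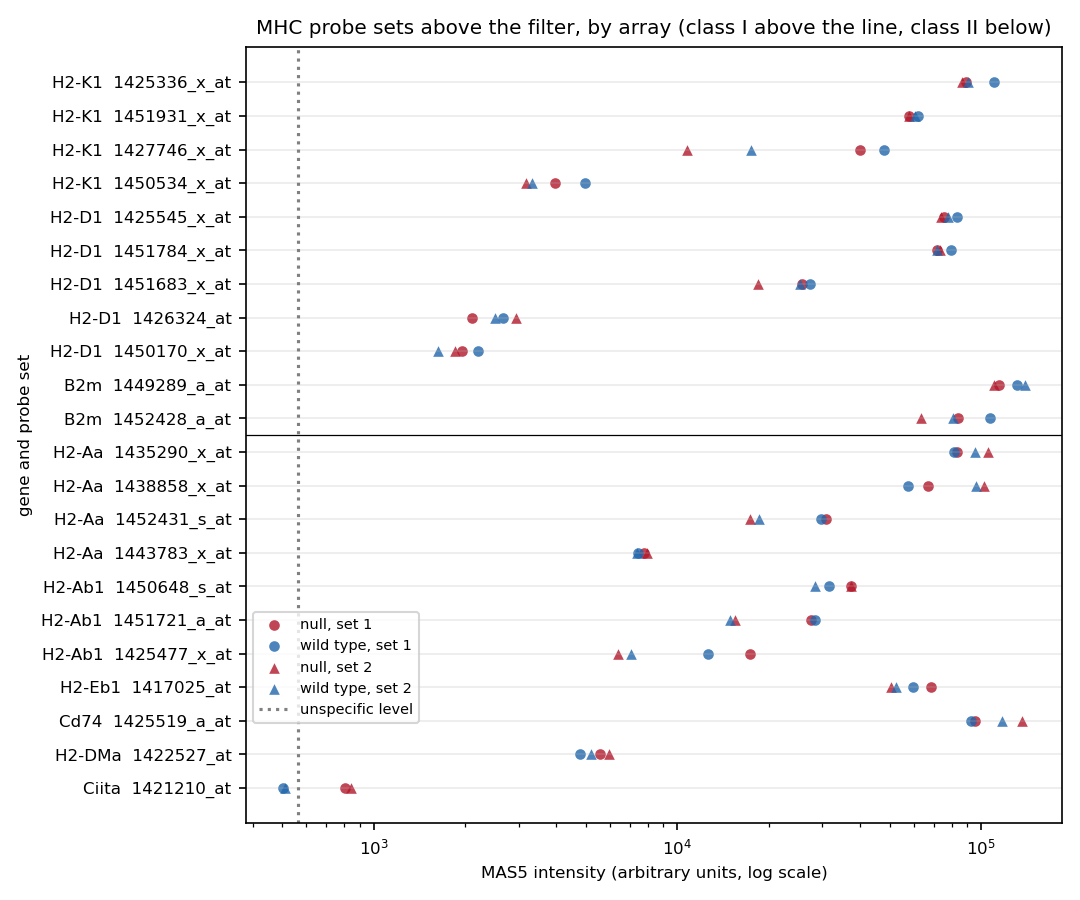
MAS5 intensity (arbitrary units, log axis) of the 22 member probe sets tested, with 1 point per array, red for null and blue for wild type, circles for set 1 and triangles for set 2. Class I lies above the horizontal line. Ciita alone straddles the unspecific level of 565 (dotted line), and for the H2-K1 probe set 1427746_x_at both set 2 points lie far left of both set 1 points.

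Among class I genes, B2m was lower in the null pool of each set on both of its probe sets. The B2m probe set 1452428_a_at read 83910, 106482, 63357 and 80842. The null array is the lower of its pair in both sets by nearly the same ratio, -0.34 and -0.35, although set 2 as a whole reads lower, so that the groups overlap across sets. B2m fell on this probe set by 0.35 ± 0.09 on the log2 scale, or 1.27-fold (limma adjusted p = 0.0265). The other B2m probe set, 1449289_a_at, read 114256, 130900, 109952 and 139254. Here both null arrays lie below both wild-type arrays, at a log2 ratio of -0.27 ± 0.10 that was not called (adjusted p = 0.115). It was called under quantile normalization (adjusted p = 0.0326) and under cyclic loess (adjusted p = 0.0467). With 1 array left out and no set term, the ratio on 1452428_a_at ran from -0.55 to -0.14. Its call was not made without the filter on dim probe sets (adjusted p = 0.0754), without the set term (adjusted p = 1) or without the intensity trend (adjusted p = 0.314).

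H2-K1, a classical heavy chain, had 4 probe sets, all lower in the null pool of both sets. Its brightest probe set, 1425336_x_at, read 88930, 109783, 86364 and 90205, with both null arrays under both wild-type arrays. The log2 ratio was -0.18 ± 0.10 (adjusted p = 0.305), made up of -0.30 in set 1 and -0.06 in set 2. Probe set 1427746_x_at read 39889, 47990, 10772 and 17444, so that both arrays of set 2 lie far below both of set 1. H2-K1 fell on it by 0.48 ± 0.10 within sets, or 1.39-fold (adjusted p = 0.00727), from -0.27 in set 1 and -0.69 in set 2. That was the largest ratio among the H2-K1 probe sets, and the other 3 lay between -0.19 and -0.08 without a call. Without the set term the H2-K1 call was lost (adjusted p = 1), and with 1 array left out as well its log2 ratio ran from -1.42 to 0.46. The value thus rests on comparing pools within sets. The call was also lost without the intensity trend (adjusted p = 0.304).

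H2-D1, the other classical heavy chain, had 9 probe sets, of which 5 were tested and 0 were called (limma, 1 of the 5 at an unadjusted p under 0.05). Its brightest, 1425545_x_at, read 75198, 83005, 73640 and 77796, with both null arrays under both wild-type arrays but a log2 ratio of only -0.11 ± 0.09 (adjusted p = 0.537). Probe set 1451683_x_at read 25680, 27372, 18359 and 25393, where the null pool of set 2 stands below the other 3 arrays, and its ratio was -0.28 ± 0.10 (adjusted p = 0.0997). The other 3 tested probe sets of H2-D1 lay between -0.06 and 0.01 and went opposite ways in the 2 sets. The 4 untested ones read between 125 and 704, and 3 of them stayed at or under the unspecific level on every array. Class I heavy chains are close relatives in sequence, and 11 of the 15 class I probe sets carry the suffix _x_at, by which the maker marks sets with probes that may match other genes. H2-K1 and H2-D1 could therefore share signal. B2m, whose probe sets carry the suffix _a_at, has no such mark.

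Of the class II chains, H2-Ab1, the beta chain of I-A, gave the call. Its brightest probe set, 1450648_s_at, read 37322, 31480, 37210 and 28472. Both null arrays read above both wild-type arrays and close to each other. H2-Ab1 rose on it 1.24-fold (log2 0.32 ± 0.08, adjusted p = 0.0335), with 0.25 in set 1 and 0.39 in set 2. The other H2-Ab1 probe sets do not show this: 1451721_a_at read 27567, 28353, 15530 and 14893, at 0.01 ± 0.08. For 1425477_x_at the readings were 17328, 12612, 6394 and 7033, at 0.16 ± 0.12 (adjusted p = 0.51), and its null array is the higher one in set 1 and the lower one in set 2. The H2-Ab1 call was lost without the filter (adjusted p = 0.0749), without the set term (adjusted p = 0.96) and without the intensity trend (adjusted p = 0.357). Its size stayed between 0.24 and 0.39 whichever array was left out.

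H2-Aa, the alpha chain that pairs with H2-Ab1, had no call on 4 probe sets (limma, 0 of 4 at an unadjusted p under 0.05). The brightest, 1435290_x_at, read 83070, 81506, 104887 and 95386, at 0.08 ± 0.09, with the set 2 arrays above the set 1 arrays. The others had log2 ratios from -0.02 to 0.15. The partner of H2-Ab1 thus showed no called difference, and its largest ratio, 0.15 ± 0.09, was below the 0.32 of H2-Ab1, a difference between the 2 genes that was not tested. H2-Eb1, the beta chain of I-E, read 68198, 59850, 50607 and 52317, higher in null in set 1 and lower in set 2, at 0.07 ± 0.09 (adjusted p = 0.733). H2-Ea, which encodes its alpha chain and is known to be silent in C57BL/6 mice, had a brightest probe set of 85.6 to 227, under the unspecific level on all 4 arrays.

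The class II accessory genes gave no call. Cd74, among the brightest members, read 95256, 92715, 135909 and 116941, at 0.13 ± 0.10 (adjusted p = 0.506), and the null array is the higher one of both pairs although the sets differ more than the genotypes. H2-DMa, a chain of the peptide exchange factor, read 5583, 4767, 5946 and 5177 on its tested probe set 1422527_at. Both null arrays lie above both wild-type arrays, at 0.21 ± 0.11 (adjusted p = 0.305). Its other probe set lay below the filter. Ciita read 804, 504, 845 and 512 on probe set 1421210_at, with both wild-type arrays under the unspecific level and both null arrays above it. It passed the filter through the null arrays only, so its fitted ratio (0.65 ± 0.32, adjusted p = 0.269) is measured against a group that is not above background. With the wild-type arrays set at the unspecific level, the mean of the null arrays was at least 1.46-fold higher. The other 2 Ciita probe sets were below the filter, and on 1421211_a_at the null arrays read lower (394 and 133) than the wild-type arrays (577 and 372), values that bar 1 lie within the unspecific level. No direction is given for Ciita as a gene.

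Taking the brightest probe set of each gene, the median log2 ratio was -0.18 over the 3 class I genes and 0.17 over the 6 class II genes with a value, against -0.03 over all probe sets tested. The 2 class medians differed by 0.35 in the fit, by 0.40 in set 1 and by 0.29 in set 2. Without Ciita, an alternative chosen after seeing the data, the class II median was 0.13 and these differences were 0.31, 0.38 and 0.28. With Ciita kept, the class I and class II medians were -0.20 and 0.21 in set 1, and -0.08 and 0.21 in set 2. Without it those of class II were 0.19 and 0.20. Class I thus lay under and class II over the median of all probe sets in each set. In set 1 the ratio was below 0 for 11 of 11 class I probe sets and above 0 for 10 of 11 of class II, that of Ciita among them. In set 2 these counts were 8 of 11 and 8 of 11, again with Ciita. Of all probe sets tested 54.0% lay below 0 in set 1 and 52.5% in set 2. With 1 array per genotype in each set there is no test within a set, and an exact two-sided permutation of 2 against 2 arrays cannot give a p below 0.333. With the mean over all tested probe sets of a gene in place of the brightest, the medians were -0.23 and 0.14.

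**Figure D3:**
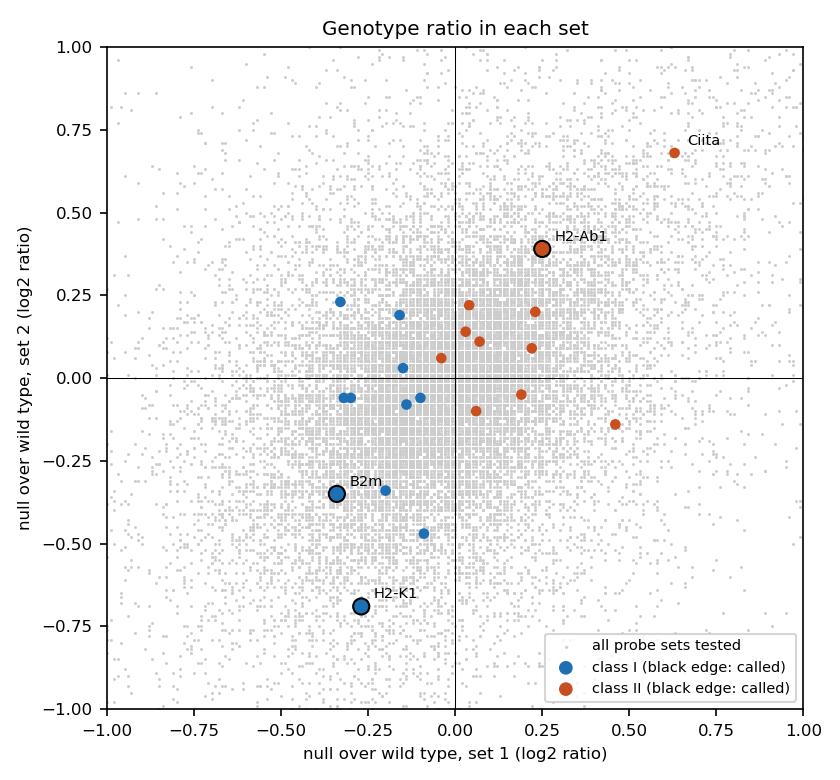
Log2 ratio of null over wild type in set 1 (x axis) and set 2 (y axis) for class I (blue) and class II (orange) probe sets over all probe sets tested (grey), with called members ringed in black and ratios beyond 1 not drawn. The 11 class I points all lie left of 0 on the x axis, and 10 of the 11 class II points lie right of it.

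More member probe sets differed between the sets of pools than between genotypes, and probe sets of the same gene differed by different amounts. Of the 22, 11 differed between set 2 and set 1 at an adjusted p under 0.05 in the same fit, against 23.5% of all probe sets tested, 8 of them lower and 3 higher in set 2. H2-K1 on 1427746_x_at was 3.18-fold lower in set 2 (log2 -1.67 ± 0.10, adjusted p = 7.17e-08), at -1.88 between the null pools and -1.46 between the wild-type pools. On its brightest probe set, H2-K1 had a set ratio of only -0.16 ± 0.10 (adjusted p = 0.242). One probe set of H2-Aa, 1438858_x_at, was higher in set 2 (log2 0.68 ± 0.09, adjusted p = 9.34e-05), while 1452431_s_at of the same gene was lower (log2 -0.76 ± 0.08, adjusted p = 2.23e-05). Both of these H2-Aa differences appeared in null and wild-type pools alike, at 0.62 and 0.74 for the first and -0.84 and -0.68 for the second. H2-Ab1 was lower in set 2 on 1451721_a_at (-0.88 ± 0.08) and 1425477_x_at (-1.14 ± 0.12), but not on 1450648_s_at (-0.07 ± 0.08), the probe set with the genotype call.

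Members with 1 tested probe set also differed in their set ratios. Cd74 was 1.34-fold higher in set 2 (adjusted p = 0.00516) and H2-Eb1 1.24-fold lower (adjusted p = 0.0216), while H2-DMa and Ciita had set ratios of 0.10 ± 0.11 and 0.05 ± 0.32. B2m, which has 2 bright probe sets, was 1.32-fold lower in set 2 on 1452428_a_at (adjusted p = 0.00458) and level on 1449289_a_at (log2 0.02 ± 0.10). The set call was as frequent among the 14 probe sets with suffix _x_at or _s_at (7 called), which can match other genes, as among the 8 with _at or _a_at (4 called). The Gapdh 3'/5' ratio also differed between the sets, 0.869 and 0.873 against 1.57 and 2.13. Its part in the set differences, like that of the MHC haplotype of the pooled animals, was not tested. All 4 labels give the strain C57BL/6.

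**Figure D4:**
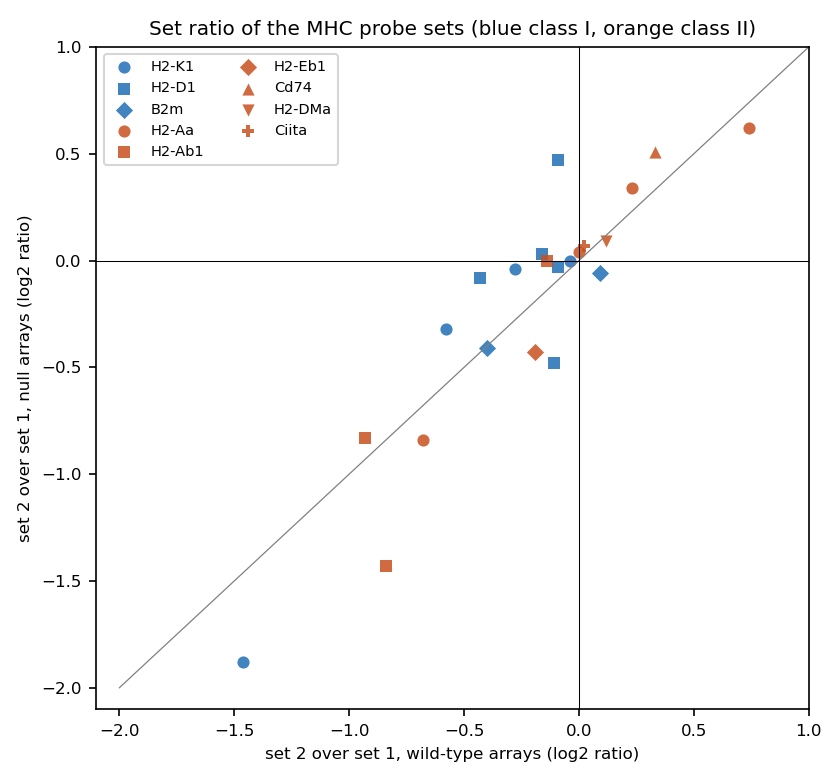
Log2 ratio of set 2 over set 1 in the wild-type arrays (x axis) and in the null arrays (y axis) for the 22 member probe sets, with a marker per gene, blue for class I and orange for class II. Points near the grey diagonal moved alike in both genotypes, and probe sets of H2-K1, H2-Aa and H2-Ab1 spread along it from -1.88 to 0.74.

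Of 13 genes listed as supplying peptides to class I, 12 were tested. With 1 called higher, against 4.09% of all probe sets, and 0 lower, they had a median log2 ratio of 0.11 and ranged from -0.37 to 0.47. The gene called was Pdia3, a thiol oxidoreductase of the loading complex, which rose 1.38-fold (27066, 21474, 41279 and 27165, adjusted p = 0.00404). Calr, the chaperone calreticulin, was at 0.28 ± 0.09 (adjusted p = 0.0782) and the immunoproteasome subunit Psmb10 at 0.29 ± 0.10 (adjusted p = 0.0883). Pdia3 and Calr also serve general folding in the endoplasmic reticulum. The peptide transporter genes Tap1 and Tap2 were at 0.11 ± 0.10 and 0.23 ± 0.12. Tapbpl, a peptide editor, was at -0.37 ± 0.18 and Tapbp, which encodes tapasin, at -0.14 ± 0.09.

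In the class I-like list, 4 of 7 genes were tested and 1 was called higher, against 4.09% of all probe sets tested. Cd1d1, which presents lipids to NKT cells, rose 1.48-fold (5103, 3538, 5928 and 3873, adjusted p = 0.00816), with both null arrays above both wild-type arrays. H2-M3 and Fcgrt, the neonatal Fc receptor, were at 0.29 ± 0.15 and 0.32 ± 0.14, and Mr1 at -0.31 ± 0.20. In the class II processing list 0 of 8 tested genes were called (limma, 1 at an unadjusted p under 0.05), with a median of -0.03. Ctsl, a cathepsin, was at -0.20 ± 0.08, the endopeptidase gene Lgmn at 0.17 ± 0.10, H2-Oa, of the inhibitor of H2-DM, at 0.36 ± 0.29 and H2-DMb2 at 0.49 ± 0.25.

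Regulators gave 0 calls among 10 transcription factors of both classes (limma, 3 at an unadjusted p under 0.05), with a median of -0.14. Nlrc5, the class I coactivator, read 1940, 2439, 2120 and 3555. The null array is the lower one in both sets, at -0.53 ± 0.17 (adjusted p = 0.0789). Irf2 was at -0.43 ± 0.15 (adjusted p = 0.0996), while Rfxap and Rfxank, subunits of RFX, were at -0.17 ± 0.13 and -0.18 ± 0.19, and Rfx5, the third subunit, was at 0.05 ± 0.12. Creb1, which also binds these promoters, was at 0.12 ± 0.09. Of the subunits of NF-Y, Nfya was at 0.00 ± 0.14, Nfyc at -0.10 ± 0.10 and Nfyb at -0.31 ± 0.14 (adjusted p = 0.219). Nfyb stood at 0.05 in set 1 and -0.67 in set 2. In the interferon gamma list 0 of 10 tested genes were called (limma, 1 at an unadjusted p under 0.05), at a median of 0.08. Ifng, the cytokine that induces both classes, read 26.2 to 85.1, under the unspecific level on all 4 arrays. Its target genes Gbp2 and Cxcl9 were at 0.30 ± 0.09 (adjusted p = 0.0697) and 0.52 ± 0.28. Cxcl9 stood at 0.05 in set 1 and 0.98 in set 2. Cxcl10, another target, was at -0.02 ± 0.26, with 0.17 in set 1 and -0.21 in set 2. Of the co-stimulatory genes 0 of 3 tested were called (limma, 0 at an unadjusted p under 0.05), with Cd86 at 0.24 ± 0.24, Icosl at 0.32 ± 0.24 and Icam1 at -0.32 ± 0.16.

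Markers of the cells that make class II were measured beside it. Of 6 genes of the leukocyte core 3 rose and 0 fell, against 4.09% and 3.27% of all probe sets tested, at a median of 0.37. Cd52, Laptm5 and Coro1a rose by 0.48, 0.40 and 0.41 on the log2 scale (limma adjusted p = 0.00368, 0.0074 and 0.0317). Ptprc, which encodes CD45, was at 0.32 ± 0.11 (adjusted p = 0.0996) and Fcer1g at 0.33 ± 0.11. Tyrobp, the brightest of the list on average, was at -0.05 ± 0.09. The summed intensity of that list was 82216 and 86132 in the null pools and 65691 and 72450 in the wild-type pools. The groups did not overlap, as was the case for 32.0% of all single probe sets tested. Of 9 macrophage markers tested 3 rose and 0 fell, Mrc1 2.04-fold, Cd163 1.82-fold and C1qb 1.25-fold, at a list median of 0.15. Csf1r and Adgre1 were each at 0.15 (SE 0.08 and 0.11), and C1qa, C1qc and Mertk at 0.09, 0.03 and -0.03. Cd68 was at -0.25 ± 0.13, with -0.48 in set 1 and -0.02 in set 2. Their sum was 142783 and 147802 in the null and 123334 and 129530 in the wild-type pools. The part of leukocyte content in the class II values was not tested.

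Of 4 dendritic cell markers tested 0 were called (limma, 1 at an unadjusted p under 0.05), with Cd209a at 0.68 ± 0.33, Zbtb46 at 0.31 ± 0.30, Batf3 at 0.26 ± 0.24 and Itgax at -0.25 ± 0.11. Both null arrays of Cd209a (729 and 817) read above both wild-type arrays (401 and 541, under the unspecific level), and the list sums overlapped (8587 and 9682 in null, 8551 and 10515 in wild type). Xcr1, Ccr7 and Irf4 stayed at or under the unspecific level on all arrays, as did the B cell genes Cd79a, Ms4a1 and Pax5 and the T cell genes Cd3d, Cd4 and Cd8b1. Cd8a, a chain of the class I coreceptor, read 988, 649, 1433 and 499, at 1.01 ± 0.31 (adjusted p = 0.0629). Cd22, the only B cell gene tested, read 823, 520, 426 and 1224, at 0.62 in set 1 and -1.43 in set 2. Cd79b, below the filter, read 582, 254, 760 and 508, higher in the null pool of both sets. B cell sums were 2243 and 1800 in null and 1539 and 2727 in wild type, and T cell sums 2571 and 2843 against 2008 and 1945. Cd8a, read on a probe set marked _x_at, is the largest part of the T cell sums in both null pools, and the other T cell genes were mixed. Cd3g read lower in the null pool of both sets (406 and 301 against 582 and 379). Cd3e read 337, 153, 426 and 777. Cd3d and Cd8b1 read higher in the null pool of both sets, within the unspecific level. The neutrophil gene S100a8 fell by 1.86 on the log2 scale, while S100a9 and Ngp stayed at or under the unspecific level. The list sums of 11187 and 10217 in null against 37001 and 34039 in wild type are mostly S100a8 (9956 and 8818 against 35879 and 32530). Csf3r, the other gene tested, was at -0.19 ± 0.31, with 0.03 in set 1 and -0.41 in set 2.

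Stromal and epithelial markers were measured beside class I, which nearly all cells make. All 6 fibroblast markers rose (median log2 1.33), with sums of 309016 and 351669 in null against 148931 and 151217 in wild type. Of 3 adipocyte markers tested 2 rose (median 1.13), with sums of 52238 and 41380 against 21194 and 17929. Of 3 endothelial markers 0 were called (limma, 1 at an unadjusted p under 0.05). Of 7 epithelial markers 1 rose, Krt19 1.29-fold, and 0 fell, at a median of -0.08 (limma, 5 at an unadjusted p under 0.05). These 5 went both ways, with Krt8 and Krt18 at 0.30 and 0.21, and Epcam and Esr1 at -0.18 and -0.40. Of all probe sets tested, 4.09% were called higher, 3.27% were called lower and 20.5% had an unadjusted p under 0.05. The part of these cell types in the lower B2m and H2-K1 signal was not tested.

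**Figure D5:**
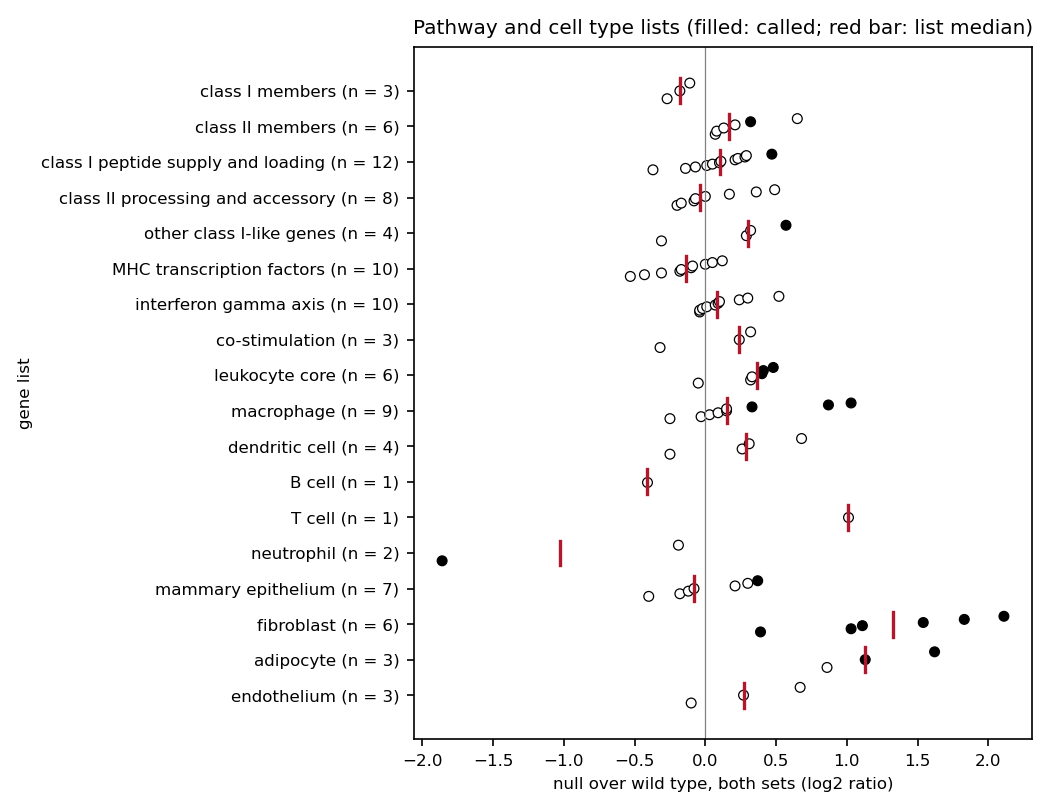
Log2 ratio of null over wild type from the fit for the brightest tested probe set of each gene, by list (n, genes tested), with called genes filled and list medians as red bars. The class I median of -0.18 lies left of 0 and the class II median of 0.17 right of it (0.13 without Ciita), beside a leukocyte core median of 0.37 and a fibroblast median of 1.33.

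The genes nearest in pattern to class II were sought among 11502 genes. They were those whose centred log2 values over the 4 arrays lay closest to the mean class II profile. That profile was 0.07, -0.15, 0.17 and -0.09. It is a mean over 6 genes that includes Ciita, which passed the filter through its null arrays only and has the largest ratio (0.65), so Ciita widens its genotype difference. The nearest genes were Wls, Scamp1, Snap23, Mtap and Pex2, at root mean square distances from 0.00889 to 0.0149, with genotype ratios from 0.24 to 0.26. Choosing genes by this distance sets their genotype ratios near that of the profile, so these ratios are no separate result. A profile over 4 arrays holds few values, and how many further genes lay nearly as close was not counted.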

How the data were processed

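RNA was read on 4 1-colour Affymetrix mouse arrays, 2 for each genotype. The deposited values are probe set intensities made with MAS5, per the submitters' processing notes, with no version given in the sources used here. All 4 arrays had the same mean, 2500.01, after 2% was trimmed at each end, so the intensities were used as deposited. Of 45101 probe sets, 64 controls were left out. The platform annotation gave 1 symbol for 34945, several for 932 and none for 9160, and 5 of those with several included a member symbol and were not used. Columns left unmapped were 0. Probe sets with a mean log2(value + 44) at or above the median were tested (22519). The constant 44 lies at the 10th percentile. Ratios of dim genes come out too small on it. The fit was limma 3.58.1 in R 4.3.3, with set and genotype as terms, an intensity trend in eBayes and Benjamini-Hochberg adjustment at 0.05. Set enters as a block since the design text pairs pools by set, and same-set deviations correlated at 0.612, a value equal in both sets by construction. With 1 residual degree of freedom, the prior of eBayes was worth 13.5 more. Precision is limited by having 4 arrays. The fit was also run on simulated data, with independent normal noise sized by its own SE and the same set and genotype terms. That run could not check the choice of the set term or of the intensity trend, and its outcome is not given here. The members, lists and alternatives were chosen with earlier results of these data known. Genes named are the members, list genes that were called, up to 4 further genes per list with large ratios in the same direction in both sets, those nearest the class II profile and St6gal1. Tap1, Tapbp, Rfx5, Creb1, Cxcl10, Tyrobp, C1qa, C1qc, Mertk, Cd3e, Cd3g, Csf3r, Ifng, H2-Ea and the markers named as unspecific were chosen for their role, after their values were seen. So were Nfya, Nfyb, Nfyc, Cd22 and Cd79b. Promoters came from the RefSeq table (GRCm38.p6), by symbol, for 7 of the 10 members, and proteins were not used here. A gene on a list is read by its brightest probe set.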

Additional observations from a re-analysis of the deposited data

Results flagged for a closer look

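For 3 member probe sets the log2 ratio of null over wild type went opposite ways in the 2 sets by at least 0.1 each. H2-D1 on 1426324_at was at -0.33 in set 1 and 0.23 in set 2, and on 1450170_x_at at -0.16 and 0.19. H2-Ab1 on 1425477_x_at was at 0.46 and -0.14. With 1 array per genotype and set, the differences between sets were not tested.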

How the results depend on the processing

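Under quantile and cyclic loess normalization, pseudocounts of 16 and 100 and a filter at the 75th percentile, the member calls numbered between 3 and 4. In these settings the class I median lay between -0.21 and -0.18 and the class II median between 0.13 and 0.17. Without a filter 1 member was called. With no replicate block (no set term) limma called 0 over the whole table (1261 at an unadjusted p under 0.05) and 0 members (0 unadjusted). Without the intensity trend it called 0 of all (3512 unadjusted) and 0 members (3 unadjusted). With 1 array left out and no set term, limma, which then assumes that the lone array varies like the other genotype, called from 5 to 26 probe sets and 0 members (0 to 3 unadjusted). The class I median then ran from -0.22 to -0.06, that of class II from 0.16 to 0.29 and their difference from 0.22 to 0.49. In a setting chosen after seeing the data, with Ciita left out, the class II median was 0.13 and the difference 0.31. In set 2 alone the class I median was -0.08. Leaving out an array also turned the sign of single probe sets, whose log2 ratios ran from -1.42 to 0.46 (H2-K1 1427746_x_at), -0.48 to 0.10 (H2-K1 1450534_x_at), -0.29 to 0.19 (H2-D1 1426324_at), -0.20 to 0.22 (H2-D1 1450170_x_at), -0.09 to 0.25, -0.22 to 0.52 and -0.44 to 0.40 (H2-Aa 1435290_x_at, 1438858_x_at and 1452431_s_at), -0.45 to 0.47 and -0.56 to 0.88 (H2-Ab1 1451721_a_at and 1425477_x_at), -0.14 to 0.29 (H2-Eb1) and -0.13 to 0.38 (Cd74). Such fits compare arrays across sets. The cause of the other changes was not tested.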
